A study of Mus musculus with 4 samples.

Results

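Colon tissue of germ-free mice gavaged with Escherichia coli was compared with colon tissue of germ-free mice gavaged with phosphate-buffered saline (PBS), the vehicle. The comparison uses 2 of the 4 RNA-seq libraries of the study, 1 from each gavage, and every gene of the deposited count table whose level averaged at least 1 count per 1e6 counts (CPM) over the 4 libraries. In all, 14450 of 24016 genes met this filter. The other libraries came from germ-free mice gavaged with Lactobacillus rhamnosus GG (LGG), a Gram-positive probiotic, and from germ-free mice that were left untreated, and their values are given beside those of the compared pair. The mice were C57BL/6, bought germ-free from Taconic at an age of 7 weeks. The labels give the dose of E. coli and of LGG as 2 x 10E9, in colony-forming units per mL, without a volume. They give 4 mice to each gavaged group and 4 cm of colon collected 4 h after the gavage. The labels do not name the E. coli strain, do not say from which stretch of the colon a piece came, and do not say whether RNA of several mice was pooled. With 1 library per group nothing can be set against a spread between animals, so no p-value is given and every difference below is one between these libraries.

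E. coli is Gram-negative, and its outer membrane carries lipopolysaccharide (LPS). LPS is handed by the binding protein Lbp and by Cd14 to the receptor Tlr4 with its partner MD-2, the product of Ly96, while flagellin is sensed by Tlr5 at the cell surface and by Naip proteins with Nlrc4 inside the cell. The adaptors Myd88 and Ticam1 then carry the signal to NF-kB and to interferon regulatory factors, whose early targets include inhibitors of the pathway itself, cytokines and chemokines. The epithelium of the colon keeps bacteria at a distance with mucus, secreted lectins and antimicrobial proteins, many of which are known to be low in germ-free animals.

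Counts assigned to genes totalled 29368008 for E. coli and 16289580.0 for PBS, with 29899371 for LGG and 27220697 for the untreated mice. Where no count was seen, levels of up to 0.103 CPM (E. coli) and 0.187 CPM (PBS) remain possible, taking 3 counts as the limit. Reads copied by PCR and carrying no molecular identifier are not independent, so this limit and all intervals cover counting error only. Defining genes of the colon were abundant in both libraries: the colonocyte carbonic anhydrase Car1 was at 2686 CPM in the E. coli and 2916 CPM in the PBS library, the chloride exchanger Slc26a3 at 1673 and 1575, and the goblet cell mucin Muc2 at 8174 and 8281. The size rule used below counts a gene as higher or lower if E. coli over PBS reached 1 in size on the log2 scale, that is 2-fold, with a 95% counting interval that excludes 0.

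Few genes differed by that much. Past the size rule, 25 genes (0.173% of those measured) were higher in the E. coli library and 35 (0.242%) were lower, 60 in all (0.415%). The median log2 ratio of all genes was 0.00222, 95% of genes lay between -0.47 and 0.37, and 12423 genes (86.0%) differed by less than 0.25 on the log2 scale. Among 2232 protein-coding genes at a mean of at least 100 CPM, 1 was past the rule and 4 differed by 1.5-fold or more. The genes past the rule were mostly scarce: 42 of the 60, and 23 of the 25 higher ones, had fewer than 50 counts in the PBS library. With the mean level required to be at least 5 CPM, 3 genes were higher (Pnlip, Cela2a and Ctrb1) and 7 lower (Apoa4, Cfd, Chrdl2, Lars2, Msln, Rn45s and Upk3b), and with no expression filter 45 were higher and 90 lower. With the untreated library in place of PBS, 119 genes (0.824%) were higher and 221 (1.53%) lower in the E. coli library, and that set of ratios is not independent of the first, since both use the E. coli library. Just inside the size rule were 3830403N18Rik at 1.01 and Rbm24 at -1.01, and just outside it were Tmprss13 at 0.98 and A730017C20Rik at -0.99.

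**Figure D1:**
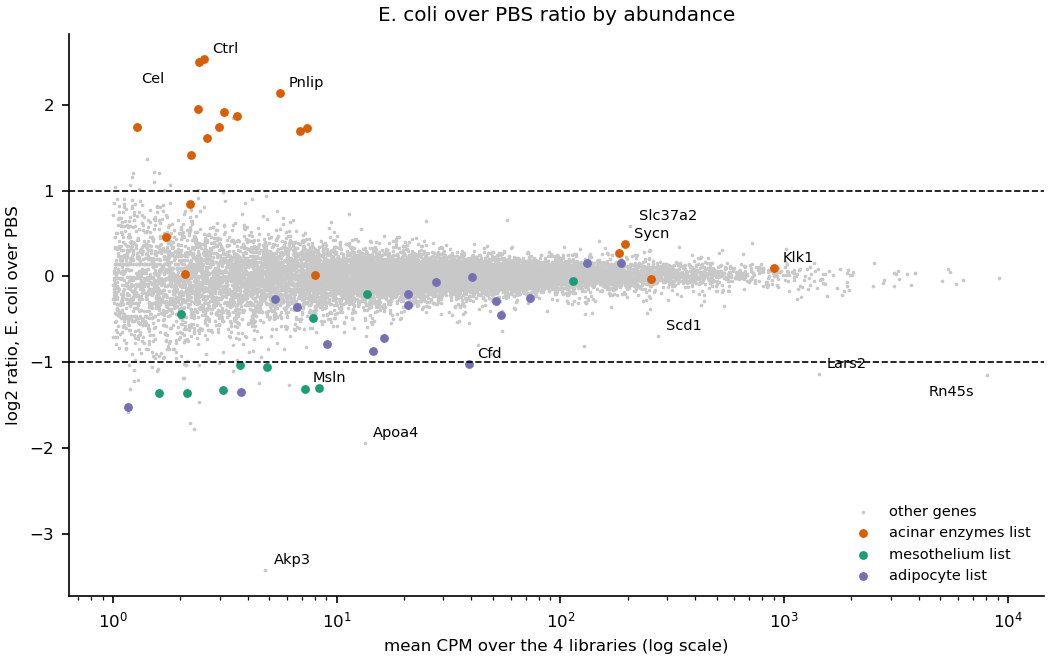
Each point is 1 of the 14450 measured genes, with its mean CPM over the 4 libraries on a log scale and the log2 ratio of the E. coli over the PBS library; dashed lines mark the 2-fold size rule and colours mark 3 gene lists. The cloud narrows with abundance, acinar enzymes reach 2.53, and the coloured points below -1 are mesothelium and adipocyte genes.

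The genes that were highest relative to PBS encode digestive enzymes of the pancreatic acinar cell. Of 30 genes on the acinar enzymes list, 20 were measured and 12 were higher past the size rule in the E. coli library, with none lower and a list median of 1.65, against a background of 0.173% higher. The filter averages over all libraries, so a scarce gene could pass it through a high level in the E. coli library. This can raise both the count and the median. Ctrl, chymotrypsin-like protease (NM_023182, chromosome 8, 108455894 to 108457762 in build mm9), stood at 5.85 CPM in the E. coli library, against 0.997 CPM in the PBS library, with 2.70 CPM in the LGG and 0.631 CPM in the untreated library, giving a log2 ratio of 2.53 (1.81 to 3.39). Cel, the bile salt-activated lipase (NM_009885, chromosome 2, 28411340 to 28418882 in build mm9), stood at 6.06 CPM, against 1.06 CPM with PBS, 2.53 with LGG and 0.0701 untreated, a ratio of 2.49 (1.80 to 3.33). Both genes were highest in the E. coli library and lowest in the untreated library. The promoters of these genes are shown because they carry the motifs of the factor that drives acinar genes, a complex of Ptf1a, which binds the E-box, with Rbpjl. The sequences are RefSeq's for build GRCm38.p6, 300 bases from upstream of the start site into the transcript, 5′ to 3′, with the E-box CANNTG and the RBPJ core TTCCCA in capitals on either strand, so that TTCCCA appears as TGGGAA where it lies on the other strand.
Ctrl promoter (chr8:105933813-105934112, minus strand): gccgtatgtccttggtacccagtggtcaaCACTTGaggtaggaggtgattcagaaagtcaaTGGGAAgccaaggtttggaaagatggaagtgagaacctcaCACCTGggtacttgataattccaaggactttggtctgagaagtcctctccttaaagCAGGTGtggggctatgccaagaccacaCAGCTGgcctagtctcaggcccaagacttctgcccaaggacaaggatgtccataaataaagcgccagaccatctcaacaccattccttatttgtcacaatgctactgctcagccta
Cel promoter (chr2:28563354-28563653, minus strand): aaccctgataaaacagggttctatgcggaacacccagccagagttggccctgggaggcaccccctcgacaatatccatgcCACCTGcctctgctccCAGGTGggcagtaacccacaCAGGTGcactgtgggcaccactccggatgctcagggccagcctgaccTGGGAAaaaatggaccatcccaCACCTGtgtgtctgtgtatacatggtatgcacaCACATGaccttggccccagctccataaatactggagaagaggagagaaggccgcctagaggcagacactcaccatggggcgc
In windows of this length, the E-box was found in 14 of the 17 measured acinar genes with a RefSeq promoter (82.4%) and in 74.99% of 27025 genes, and the RBPJ core in 12 of 17 (70.6%) and 28.3%. The motifs can overlap each other, and a match is a description of the letters only.

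The 12 members past the rule are lipases, peptidases, elastases and a ribonuclease. Pancreatic lipase (Pnlip) was at 12.7 CPM in the E. coli library, against 2.87 in the PBS library, 6.60 in the LGG and 0.140 in the untreated library, which gave a log2 ratio of 2.14 (1.70 to 2.62). Elastase 2A (Cela2a) was at 14.5 CPM, against 4.36 with PBS, 9.36 with LGG and 1.33 untreated, a ratio of 1.73 (1.37 to 2.12). Chymotrypsinogen B1 (Ctrb1) was at 14.4 CPM, against 4.42, 8.34 and 0.210 CPM in the same order of libraries, a ratio of 1.70 (1.34 to 2.09). All 12 ran E. coli, LGG, PBS, untreated in falling order, of which the size rule itself fixes that E. coli lay above PBS. Among 2232 protein-coding genes at a mean of at least 100 CPM, 160 ran in that order. Those genes are more abundant than the 12 and were not selected by the size rule, so the 2 counts are not alike. The share over all measured genes is not given. Of 13 genes higher past the same rule outside the acinar, mesothelium and adipocyte lists, 1 ran in that order (2210010C04Rik). Of the 8 other measured acinar members 0 did, but the list was split by the same E. coli over PBS values. The remaining 9 were the lipase relative Pnliprp1 (1.96), the carboxypeptidases Cpa1 (1.91) and Cpb1 (1.87), the trypsinogens Prss2 (1.74) and Try4 (1.61), ribonuclease Rnase1 (1.74), elastase 3B (Cela3b, 1.41), and Ctrl and Cel. Prss2, Try4 and other trypsinogens are near-identical copies that may share reads, so their separate values are uncertain. A further gene past the rule and outside the lists, 2210010C04Rik, was at 7.64 CPM in the E. coli library, against 2.12 in PBS, 3.90 in LGG and 0.0701 in untreated, the same falling order.

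The other 8 measured members of the acinar list did not pass, among them the most abundant ones. Syncollin (Sycn) was at 265 CPM in the E. coli and 205 CPM in the PBS library, a ratio of 0.37 (0.31 to 0.43), and elastase 1 (Cela1) at 236 and 195 CPM, a ratio of 0.28 (0.21 to 0.34). The trypsin inhibitor Spink3 was at 293 and 299 CPM (-0.03), kallikrein Klk1 at 926 and 869.6 CPM (0.09), and colipase (Clps) at 7.92 and 7.85 CPM (0.01). These genes held most of the list's summed level of 1832 CPM in the E. coli and 1608 CPM in the PBS library, and the 12 enzymes past the rule held 91.6 and 24.9 CPM of it. Gp2, a zymogen granule protein, had a ratio of 0.46 (-0.16 to 1.13), and Pnliprp2 one of 0.03 (-0.56 to 0.63). With a mean level of at least 5 CPM the list median was 0.32. Below the filter were Ctrc, Prss1, Prss3, Try5, Try10, Amy2a5, Amy2b, Cuzd1, Pla2g1b and Reg1, of which Prss1 and Amy2a5 had no count in any library and Try5 was at 2.17 CPM in the E. coli and 0.499 CPM in the PBS library.

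The regulators of acinar identity were unevenly present. Ptf1a, the factor that specifies acinar cells, had no count in any library, and its partner Rbpjl had 14 counts in the E. coli and 2 in the PBS library. Bhlha15, a factor of secretory cells including plasma cells, was at 3.55 CPM in the E. coli and 5.80 CPM in the PBS library, a ratio of -0.71 (-1.13 to -0.29), and the nuclear receptor Nr5a2, which the colon also expresses, was at 41.6 and 42.3 CPM. The insulin genes Ins1 and Ins2 and the islet zinc transporter Slc30a8 had no count in the E. coli or the PBS library. The 1 measured gene of the islet list, pancreatic polypeptide (Ppy), was at 2.62 and 2.74 CPM (-0.07 (-0.62 to 0.50)). The source of the enzyme transcripts was not tested. In tissue libraries fewer cells of a type and less RNA per cell cannot be told apart, here and for every cell type below.

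**Figure D2:**
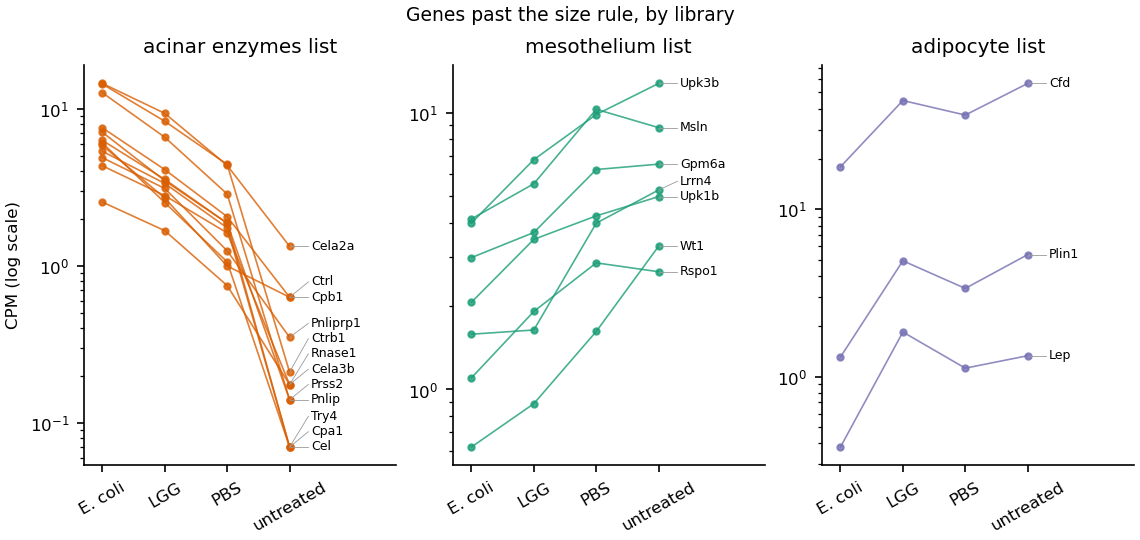
Levels in CPM on a log scale of the members past the size rule of 3 lists, 1 line per gene, in the E. coli, LGG, PBS and untreated libraries. The 12 acinar enzymes fall from left to right, the 7 mesothelium genes have their lowest value in the E. coli library, and Cfd, Plin1 and Lep are lowest there too.

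Markers of the mesothelium, the sheet of cells that covers the outer surface of the gut, were lower in the E. coli library. Of 13 listed genes, 12 were in the table, 11 were measured, and 7 were lower past the size rule, with none higher, against a background of 0.242% lower. The list median was -1.05, and the E. coli library was the lowest of the 4 for 11 of 11 genes, where 21.4% of all measured genes had their lowest level in that library. Mesothelin (Msln) was at 4.13 CPM in the E. coli library, against 10.3 in the PBS, 5.54 in the LGG and 8.83 in the untreated library, which gave a log2 ratio of -1.31 (-1.67 to -0.97). Uroplakin 3B (Upk3b) was at 3.99 CPM, against 9.85 with PBS, 6.77 with LGG and 12.8 untreated, a ratio of -1.30 (-1.66 to -0.95). For these genes the LGG library lay between the E. coli library and the others. The mesothelial transcription factor Wt1 was at 0.620 and 1.62 CPM in the E. coli and PBS libraries (-1.36), and the neuronal leucine-rich repeat protein Lrrn4 at 1.58 and 3.99 CPM (-1.32). R-spondin 1 (Rspo1), which amplifies Wnt signals, had a ratio of -1.36, Gpm6a -1.05 and Upk1b -1.03. Not past the rule were Prg4 (-0.49), Nkain4 (-0.44), Aldh1a2 (-0.21) and the keratin Krt7 (-0.06), which epithelium also expresses, and Bnc1, below the filter, was at 0.275 and 1.62 CPM. With a mean level of at least 5 CPM the list median was -0.49.

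Some fat cell genes were lower as well, namely 3 of 17 measured genes past the size rule (20 were listed), against a background of 0.242% lower. The list median was -0.33. Adipsin (Cfd), a complement protease secreted by adipocytes, was at 18.0 CPM in the E. coli library, against 36.6 in the PBS, 44.8 in the LGG and 56.6 in the untreated library, a ratio of -1.03 (-1.20 to -0.86). Perilipin 1 (Plin1), which coats the lipid droplet, was at 1.31 CPM, against 3.37, 4.92 and 5.36 CPM in that order, a ratio of -1.35 (-2.001 to -0.74). Leptin (Lep), the satiety hormone, was at 0.379 CPM, against 1.12, 1.85 and 1.33 CPM, a ratio of -1.52 (-2.79 to -0.41) from 11 counts against 18. For these 3 genes the E. coli library was the lowest, and it was the lowest of the 4 for 14 of the 17. That library was the lowest for 21.4% of all measured genes. Adiponectin (Adipoq, -0.78 (-1.13 to -0.45)), Thrsp (-0.87), the droplet protein Cidec (-0.72) and lipoprotein lipase (Lpl, -0.46) had intervals below 0 without passing the rule, while Pck1 (0.16) and Pnpla2 (0.15), which are active in many tissues, had intervals above 0. Cidea, Ucp1 and Aqp7 were below the filter.

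Smooth muscle and enteric neuron genes gave small differences of 1 sign. None of 20 smooth muscle genes had a positive ratio, where 50.7% of all measured genes did, and 17 had an interval below 0, where 8.93% of all measured genes did. The median was -0.14, the lowest ratio -0.25, and no gene passed the size rule. Smooth muscle myosin (Myh11) was at 2303 CPM in the E. coli and 2487 CPM in the PBS library (-0.11 (-0.13 to -0.09)), transgelin (Tagln) at 1785 and 1991 CPM (-0.16), and desmin (Des) at 1741 and 1880.1 CPM (-0.11). Enteric neuron genes had 0 of 17 positive ratios and a median of -0.25, with 7 intervals below 0. Among them were the RNA-binding protein Elavl4 (-0.53), calretinin (Calb2, -0.42), the synaptic protein Snap25 (-0.37) and vasoactive intestinal peptide (Vip, -0.31), while the more abundant Uchl1 was at -0.07. The E. coli library was the lowest of the 4 for 18 of 20 muscle and 16 of 17 neuron genes, and for 21.4% of all measured genes. The interstitial cells of Cajal, the pacemakers of the muscle layer, did not share this sign: 3 of 5 measured genes had positive ratios, 2 of them with an interval above 0 (the chloride channel Ano1, 0.14, and Thbs4, 0.08), none had an interval below 0, and the median was 0.02.

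No gene of the endothelial and glial lists passed the size rule. The endothelial list had a median of 0.05 over 14 genes, enteric glia -0.02 over 8. Lymphatic endothelium had a median of -0.21 over 6 genes, 2 with an interval below 0 (the hyaluronan receptor Lyve1, -0.29, and Mmrn1, -0.24). Such an interval was found for 8.93% of all measured genes. In the connective tissue list (median -0.00, 18 genes) the collagens stood on 1 side: Col1a1 was at 383 CPM in the E. coli and 302 CPM in the PBS library (0.35 (0.30 to 0.39)), Col1a2 at 0.21, Col3a1 at 0.17, Col5a1 at 0.17, Col6a1 at 0.14 and Col6a2 at 0.20, each with an interval above 0, and Col6a3 at -0.01. Over the untreated library the median of these 7 collagens was -0.03 and the ratio of Col1a1 0.04, so the direction did not hold against the other control. Fibronectin (Fn1) was at -0.22 and the BMP antagonist Grem1 at -0.44, with intervals below 0. Lists of B and plasma cells (median 0.06), T cells (-0.03) and macrophages and dendritic cells (-0.00) had no member past the rule. The only member past the rule in the mast cell and eosinophil list was the lipoxygenase Alox15, at 1.20 CPM in the E. coli library, against 3.37 in PBS, 2.26 in LGG and 2.84 in untreated (-1.47 (-2.14 to -0.84)), which macrophages and epithelia can also express, and the defining granule genes of that list, Epx, Prg2, Mcpt4 and Cpa3, were at or under 0.172 CPM in both compared libraries. Of the neutrophil list, S100a9, Elane, Ngp and Retnlg had no count in either compared library, and S100a8 had 1 count in the E. coli and 0 in the PBS library.

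Some scarce brush border and lipid transport genes of the epithelium were past the size rule. In a list of 25 such genes, of which 22 were measured, 3 were lower, against a background of 0.242%, and none was higher. The median was -0.17. Apoa4, an apolipoprotein secreted with intestinal fat, was at 0.310 CPM in the E. coli library, against 1.25 in the PBS, 5.95 in the LGG and 45.8 in the untreated library, a ratio of -1.94 (-3.33 to -0.81). The alkaline phosphatase gene Akp3 had 1 count in the E. coli and 9 in the PBS library, against 118 with LGG and 416 untreated, and its ratio of -3.43 (-9.48 to -1.17) is correspondingly loose. S100g, the vitamin D-dependent calcium-binding protein, was at 1.62 CPM, against 3.86 with PBS, 5.13 with LGG and 7.29 untreated, a ratio of -1.25 (-1.83 to -0.69). For these 3 genes the levels ran untreated, LGG, PBS, E. coli in falling order. That E. coli lay below PBS is fixed by the size rule itself. Apoa1 (-0.54), Prap1 (-0.52) and the aminopeptidase Enpep (-0.35) had intervals below 0, and aminopeptidase N (Anpep, 0.33 (0.18 to 0.47)) and the peptide transporter Slc15a1 (0.13) above it. Apoc3, Fabp1 and Slc2a2 were below the filter, and sucrase-isomaltase (Sis) was at 12.4 and 14.7 CPM.

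Genes that differ along the length of the colon also differed between the pieces. Of 15 genes listed as higher in proximal colon, 1 had a positive ratio, 11 had an interval below 0 and 1 (Apoa4) passed the size rule, with a median of -0.40. Over all measured genes 50.7% had a positive ratio, 8.93% an interval below 0, and 0.242% were lower past the rule. Of 14 measured genes listed as higher in distal colon, 13 had a positive ratio, 11 had an interval above 0, as 10.05% of all measured genes did, and none passed the rule, with a median of 0.26. Hox genes, which keep the positional identity of the gut tube in the order of their paralog numbers, split the same way: 8 of 8 measured genes of paralogs 10 to 13 had positive ratios (median 0.35), and 6 of 19 of paralogs 1 to 9 did (median -0.26). Hoxd13 was at 39.1 CPM in the E. coli library, against 24.9 in the PBS, 15.4 in the LGG and 21.2 in the untreated library, a ratio of 0.65 (0.48 to 0.82). Hoxb6 was at 7.95 CPM, against 11.7 with PBS, 17.0 with LGG and 33.1 untreated, a ratio of -0.55 (-0.84 to -0.27). Of the 4 libraries, that of E. coli was highest for Hoxd13 and lowest for Hoxb6. Hoxa10 (0.02) and Hoxb9 (0.07) lay near 0 at the boundary of the groups, and these splits were chosen after values were seen. The part of position along the colon in the other differences was not tested.

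Among abundant genes, those with mean levels of at least 100 CPM, the highest ratios included transporters of the epithelium. Slc37a2, a sugar phosphate transporter (NM_001145960, chromosome 9, 37036734 to 37063323 in build mm9), stood at 272 CPM in the E. coli library, against 181 in the PBS, 215 in the LGG and 155 in the untreated library, a ratio of 0.59 (0.53 to 0.65). It stands on the distal colon list, as does the water channel Aqp8, at 321 and 259.5 CPM (0.31 (0.25 to 0.36)). The amino acid transporter Slc36a1 had a ratio of 0.42, alcohol dehydrogenase Adh1 0.38, the ephrin receptor Ephb4 0.35, the carnitine carrier Slc25a20 0.33, transglutaminase Tgm3 0.32 and the nuclear envelope protein Sun2 0.32. The colonic proton pump subunit Atp12a was at 691 and 573 CPM (0.27 (0.23 to 0.31)), within an ion and water transport list of 24 measured genes that had 16 positive ratios, 11 intervals above 0 and a median of 0.05. A positive ratio was found for 50.7% of all measured genes and an interval above 0 for 10.05%. All of the differences named in this paragraph were under 2-fold.

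**Figure D3:**
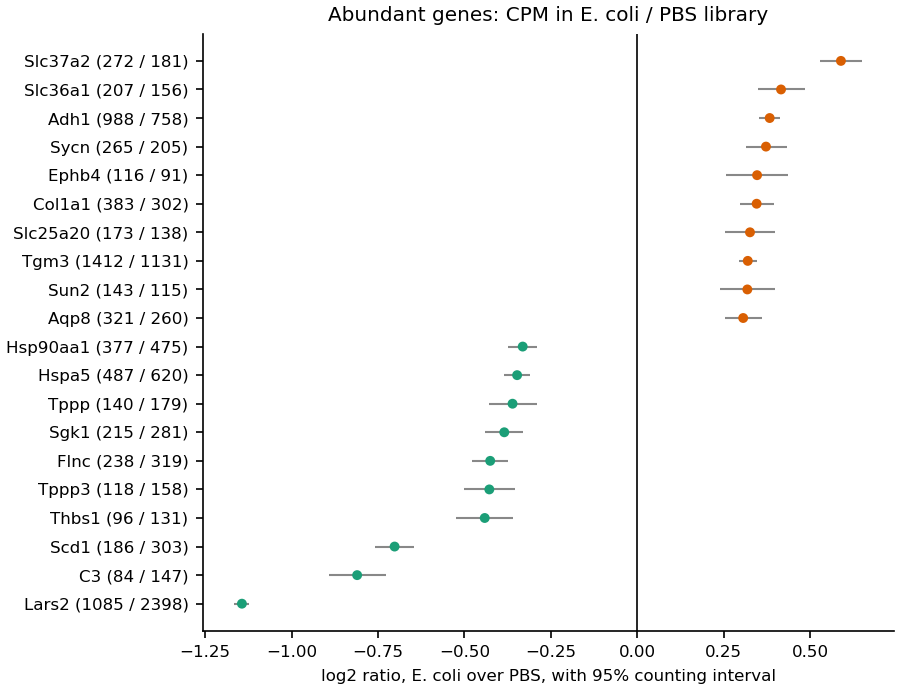
The 10 highest and 10 lowest log2 ratios of E. coli over PBS among 2232 abundant protein-coding genes, with 95% counting intervals and CPM in the E. coli and PBS libraries in parentheses. Lars2 at -1.14 is the 1 gene beyond 2-fold, and Slc37a2 at 0.59 leads the higher side.

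The lowest abundant genes other than Lars2 were complement C3 and the fatty acid desaturase Scd1. Scd1 (NM_009127, chromosome 19, 44468940 to 44482199 in mm9), which makes monounsaturated fatty acids, was at 186 CPM in the E. coli library, against 303 in the PBS, 299.6 in the LGG and 304 in the untreated library, a ratio of -0.70 (-0.76 to -0.65). The E. coli library stood apart, and the other 3 libraries were almost level. Malic enzyme (Me1), which supplies NADPH for fatty acid synthesis, showed the same layout with 29.8 CPM, against 56.0 with PBS, 53.3 with LGG and 58.7 untreated, a ratio of -0.91 (-1.05 to -0.77). Of 8 lipogenic genes put together after values were seen, 7 had negative ratios with intervals below 0. Of all measured genes, 49.3% had a negative ratio and 8.93% an interval below 0. The 7 included fatty acid synthase (Fasn, -0.28), Acaca (-0.26), Elovl6 (-0.13) and Acly (-0.05). Adipocytes express these genes strongly too, and their part in the result was not tested. C3 (NM_009778, chromosome 17, 57343396 to 57367559 in mm9), the central complement protein, was at 84.1 CPM in the E. coli library, against 147 in the PBS, 91.9 in the LGG and 188 in the untreated library, a ratio of -0.81 (-0.89 to -0.73), so that both bacterial libraries were low for it. Lower ratios among abundant genes were also seen for thrombospondin Thbs1 (-0.44), the tubulin-binding proteins Tppp3 (-0.43) and Tppp (-0.36), filamin C (Flnc, -0.43) and the kinase Sgk1 (-0.38). Over the untreated library Flnc (0.24) and Sgk1 (0.20) had the other sign.

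The receptors and adaptors that sense E. coli did not differ by 2-fold. Of 39 listed genes of Toll-like receptor and LPS sensing, 35 were measured and none passed the size rule in either direction, 20 had a positive ratio, 1 interval lay above 0 and 2 below, and the median was 0.04. The shares over all measured genes were 50.7% with a positive ratio, 10.05% with an interval above 0 and 8.93% with one below. The LPS receptor Tlr4 was at 21.6 CPM in the E. coli library, against 24.6 in the PBS, 21.8 in the LGG and 24.5 in the untreated library, a ratio of -0.19 (-0.37 to -0.00). Its coreceptor Cd14 was at 29.1 CPM, against 26.7, 29.8 and 21.4 CPM in that order (0.13 (-0.04 to 0.30)), and Ly96 at 4.27 CPM, against 3.99, 4.24 and 4.41 CPM (0.10 (-0.35 to 0.56)). For Cd14 and Ly96 the E. coli library lay inside the range of the other libraries, and for Tlr4 just below it. The flagellin receptor Tlr5 was at 3.51 and 4.36 CPM (-0.31 (-0.77 to 0.15)), the lipoprotein receptors Tlr1 and Tlr2 had ratios of 0.09 and -0.02, and the RNA sensor Tlr3 0.07. Per kilobase of transcript, Tlr1 was at 22.8 CPM in the E. coli and 21.4 CPM in the PBS library, Tlr4 at 5.63 and 6.41, and Tlr5 at 1.10 and 1.37. Scarcer receptors had wide intervals: Tlr6 was at 0.72 (-0.17 to 1.72), Tlr9 at -0.46 (-1.10 to 0.19) and Cd180, a Tlr4 homologue of B cells, at 0.70 (-0.03 to 1.49).

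Adaptors and kinases downstream of the receptors gave ratios near 0. Myd88, the adaptor of most Toll-like receptors, was at 39.8 and 38.9 CPM in the E. coli and PBS libraries (0.03 (-0.11 to 0.18)), Ticam1 had a ratio of -0.01, and Tirap, which bridges Tlr4 to Myd88, 0.20 (0.02 to 0.39). The kinases Irak1, Irak2 and Irak4 were at -0.04, -0.07 and 0.08, and the brakes Irak3, Sigirr and Tollip at -0.26, 0.10 and -0.09. Inside the cell, the peptidoglycan sensors Nod1 and Nod2 were at 0.10 and 0.14, Nlrc4 at -0.00, Naip1 at 0.02, Naip2 at -0.11 (-0.21 to -0.01), Naip5 at 0.07, and caspase Casp4, which binds cytosolic LPS, at 0.04. Naip genes are close copies of each other and may share reads. Tlr8, Ticam2 and Aoah were below the filter, and Bpi had no count in any library.

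Targets of NF-kB that respond early to LPS were level as well. Of 24 measured genes of the NF-kB list none passed the size rule, 15 had positive ratios, where 50.7% of all measured genes did, and the median was 0.03. The inhibitor Nfkbia was at 68.7 CPM in the E. coli library, against 64.6 in the PBS, 70.7 in the LGG and 73.7 in the untreated library (0.09 (-0.02 to 0.20)), and the deubiquitinase Tnfaip3, known as A20, at 78.7 CPM, against 81.8, 72.6 and 62.6 CPM (-0.05 (-0.15 to 0.04)). Intervals lay above 0 for Birc3 (0.15) and Tnip1 (0.11) and below 0 for no gene.

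Cytokines of an acute response were barely expressed in either library. Of 35 listed cytokine and chemokine genes, 12 were measured and 23 were below the filter. Tumour necrosis factor (Tnf) was at 0.757 CPM in the E. coli library, against 1.12 in the PBS, 0.786 in the LGG and 0.526 in the untreated library, and interleukin-1 beta (Il1b) at 0.275 CPM, against 0.561, 0.615 and 0.841 CPM. The neutrophil attractant Cxcl1 was at 0.413 CPM, against 0.374, 0.205 and 0.210 CPM. Il6 had 1 count in the E. coli and 0 in the PBS library, Cxcl2 had 0 and 1, and Il22, Il17a, Ifng, Cxcl3 and Csf3 had none in either. For a gene without a count, levels of up to 0.103 CPM in the E. coli and 0.187 CPM in the PBS library remain possible. The measured members had a median of -0.01 and none passed the size rule. Ccl20, which draws cells bearing Ccr6 to the epithelium, was at 1.86 CPM in the E. coli library, against 1.12 in the PBS, 1.40 in the LGG and 1.02 in the untreated library (0.72 (-0.06 to 1.59)), and the monocyte attractant Ccl7 was at 1.17 CPM, against 1.99, 1.504 and 0.701 CPM (-0.76 (-1.51 to -0.03)). For Ccl20 the E. coli library was the highest of the 4, with an interval that included 0, and for Ccl7 the PBS library was the highest and the untreated library the lowest. The stromal chemokine Cxcl12 (0.15 (0.03 to 0.27)) had an interval above 0, while the mucosal chemokine Ccl28 (0.05), Il18 (0.14) and Il33 (-0.19) had intervals that included it.

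Antimicrobial and goblet cell genes had ratios on both sides of 0. Of 26 listed antimicrobial genes, 25 were in the table and 20 measured, none passed the size rule, 4 had an interval above 0 and 5 below, and the median was -0.02. Of 17 measured goblet cell genes none passed either, 5 had an interval above 0 and 6 below, and the median was -0.01. Intervals above 0 were found for 10.05% of all measured genes and intervals below 0 for 8.93%, so both lists exceeded these shares in both directions. Angiogenin 4 (Ang4), a secreted ribonuclease of goblet and Paneth cells, was at 46.8 CPM in the E. coli library, against 72.7 in the PBS, 61.6 in the LGG and 38.0 in the untreated library, a ratio of -0.64 (-0.75 to -0.52). The protease inhibitor Slpi was at 5.34 CPM, against 9.47 with PBS, 5.88 with LGG and 8.37 untreated, a ratio of -0.83 (-1.16 to -0.50). Reg3g, a lectin that kills Gram-positive bacteria, was at 1.17 CPM, against 1.99, 2.43 and 3.05 CPM (-0.76 (-1.51 to -0.03)), and intelectin (Itln1) at 0.792 CPM, against 1.496, 1.504 and 1.05 CPM (-0.90 (-1.81 to -0.03)). The E. coli library was the lowest of the 4 for Slpi, Reg3g and Itln1, and for Ang4 the untreated library was lower. Reg3b had a ratio of 0.17 (-0.10 to 0.45), and reads of the Reg3 genes may be shared between them. The abundant products differed by small amounts: Lypd8, which binds flagella of Gram-negative bacteria, was at 6201 CPM in the E. coli and 6014 CPM in the PBS library (0.04), the lectin Zg16 at 0.02, the antibody transporter Pigr at 0.06, Dmbt1 at 0.03, Saa1 at -0.03 and the mucin Muc2 at -0.02. The hydrogen peroxide source Duox2 was at 0.10 (-0.03 to 0.24) and its maturation factor Duoxa2 at 0.40 (-0.02 to 0.84). S100a8, S100a9, Nos2, Defb1 and Camp were below the filter.

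Chaperone genes were lower by small amounts through most of their lists. Of 22 heat shock genes, 20 had negative ratios, as 49.3% of all measured genes did. An interval below 0 was found for 17, against 8.93% of all measured genes. None passed the size rule, and the median was -0.16. Hsp90aa1, an inducible cytosolic chaperone, was at 377 CPM in the E. coli library, against 475 in the PBS, 473 in the LGG and 378 in the untreated library, a ratio of -0.33 (-0.37 to -0.29). Hspa8 was at 1431 CPM, against 1676, 1481 and 1604 CPM in that order (-0.23 (-0.25 to -0.21)), and Hsph1 at 52.2 CPM, against 68.2, 64.6 and 67.0 CPM (-0.39 (-0.50 to -0.27)). The E. coli library was the lowest of the 4 for these genes and for 12 of the 22. For Hsp90aa1 it was almost level with the untreated library, at a ratio of -0.003. With the untreated library as control the list median was -0.05. The stress-inducible Hspa1a (0.18) and Hspa1b (-0.12), which are near-identical and may share reads, had intervals that included 0. The promoter of Dnaja1, a cochaperone of Hspa8 with a ratio of -0.21 (-0.28 to -0.14), is shown with the heat shock element GAANNTTC, the site of the heat shock factor, in capitals (RefSeq, GRCm38.p6, 5′ to 3′).
Dnaja1 promoter (chr4:40722218-40722517, plus strand): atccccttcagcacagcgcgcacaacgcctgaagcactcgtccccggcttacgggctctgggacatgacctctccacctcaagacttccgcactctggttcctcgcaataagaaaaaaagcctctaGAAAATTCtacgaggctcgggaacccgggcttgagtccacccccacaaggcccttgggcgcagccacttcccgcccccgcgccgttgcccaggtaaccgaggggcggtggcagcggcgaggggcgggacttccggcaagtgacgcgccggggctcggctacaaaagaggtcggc
The element stood in 11 of the 18 heat shock genes with a RefSeq promoter (61.1%) and in 9.04% of 27025 genes, and reads the same on both strands.

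Chaperones of the endoplasmic reticulum leaned the same way. Of 25 genes of the unfolded protein response, 3 had positive ratios, 13 had an interval below 0 and none passed the size rule, with a median of -0.11. The shares over all measured genes were 50.7% with a positive ratio and 8.93% with an interval below 0. Hspa5, known as BiP, the main chaperone of this compartment (NM_022310, chromosome 2, 34627610 to 34632049 in build mm9), stood at 487 CPM in the E. coli library, against 620.0 in the PBS, 568 in the LGG and 478 in the untreated library, a ratio of -0.35 (-0.38 to -0.31). Sdf2l1 was at 32.4 CPM, against 41.4, 41.2 and 27.1 CPM (-0.35 (-0.50 to -0.21)), and Hyou1 at 127 CPM, against 154, 135 and 117 CPM (-0.28 (-0.35 to -0.21)). PBS was the highest library for these 3 genes and untreated the lowest. With the untreated library as control the list median was 0.10, so the sign differed between the control libraries. Its stress effectors Ddit3 (-0.15), Atf4 (-0.07) and Xbp1 (-0.06) were nearer to 0. The Hspa5 promoter is shown with the ER stress element, CCAAT and CCACG separated by 9 bases, in capitals (RefSeq, GRCm38.p6, 5′ to 3′, both strands searched).
Hspa5 promoter (chr2:34771840-34772139, plus strand): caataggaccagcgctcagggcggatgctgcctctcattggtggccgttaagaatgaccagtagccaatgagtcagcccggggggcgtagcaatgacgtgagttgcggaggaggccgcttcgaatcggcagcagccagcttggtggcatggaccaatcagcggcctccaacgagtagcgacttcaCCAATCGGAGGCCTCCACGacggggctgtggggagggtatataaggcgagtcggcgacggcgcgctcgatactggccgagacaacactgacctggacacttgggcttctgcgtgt
The element was found in 8 of the 23 genes of the list with a RefSeq promoter (34.8%) and in 0.137% of 27025 genes.

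Interferon-stimulated genes leaned lower against PBS. Of 42 listed genes 41 were measured, 9 had a positive ratio, 9 had an interval below 0, 1 had an interval above it and none passed the size rule, with a median of -0.11. Over all measured genes 50.7% had a positive ratio, 8.93% an interval below 0 and 10.05% an interval above it. Irf7, the factor that drives type I interferon genes, was at 68.1 CPM in the E. coli library, against 90.2 in the PBS, 94.7 in the LGG and 94.7 in the untreated library, a ratio of -0.41 (-0.50 to -0.31). Here the E. coli library lay below the other 3, which were close together. Oas3, which makes the activator of ribonuclease L, was at 4.58 CPM, against 6.85, 6.22 and 5.75 CPM in that order (-0.58 (-0.96 to -0.20)), and viperin (Rsad2) at 3.61 CPM, against 5.23, 3.96 and 5.96 CPM (-0.53 (-0.96 to -0.10)). Both were lowest in the E. coli library. Ifit1 (-0.39) and Oasl2 (-0.31) had intervals below 0, Irf1 (0.14 (0.06 to 0.22)) had an interval above it, and the cytosolic RNA sensor Ifih1 was at -0.01. With the untreated library as control the list median was 0.12, of the other sign, so here too the sign differed between the control libraries. The Oas3 promoter is shown with the interferon-stimulated response element GAAANNGAAA in capitals (RefSeq, GRCm38.p6, 5′ to 3′, both strands searched).
Oas3 promoter (chr5:120777610-120777909, minus strand): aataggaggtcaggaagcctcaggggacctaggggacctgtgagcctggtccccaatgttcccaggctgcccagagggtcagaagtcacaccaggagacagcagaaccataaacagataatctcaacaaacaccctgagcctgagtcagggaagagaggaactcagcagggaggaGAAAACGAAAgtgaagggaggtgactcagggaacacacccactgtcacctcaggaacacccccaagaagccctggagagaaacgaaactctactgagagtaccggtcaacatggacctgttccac
The element stood in 18 of the 31 interferon genes with a RefSeq promoter (58.1%) and in 3.99% of 27025 genes.

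**Figure D4:**
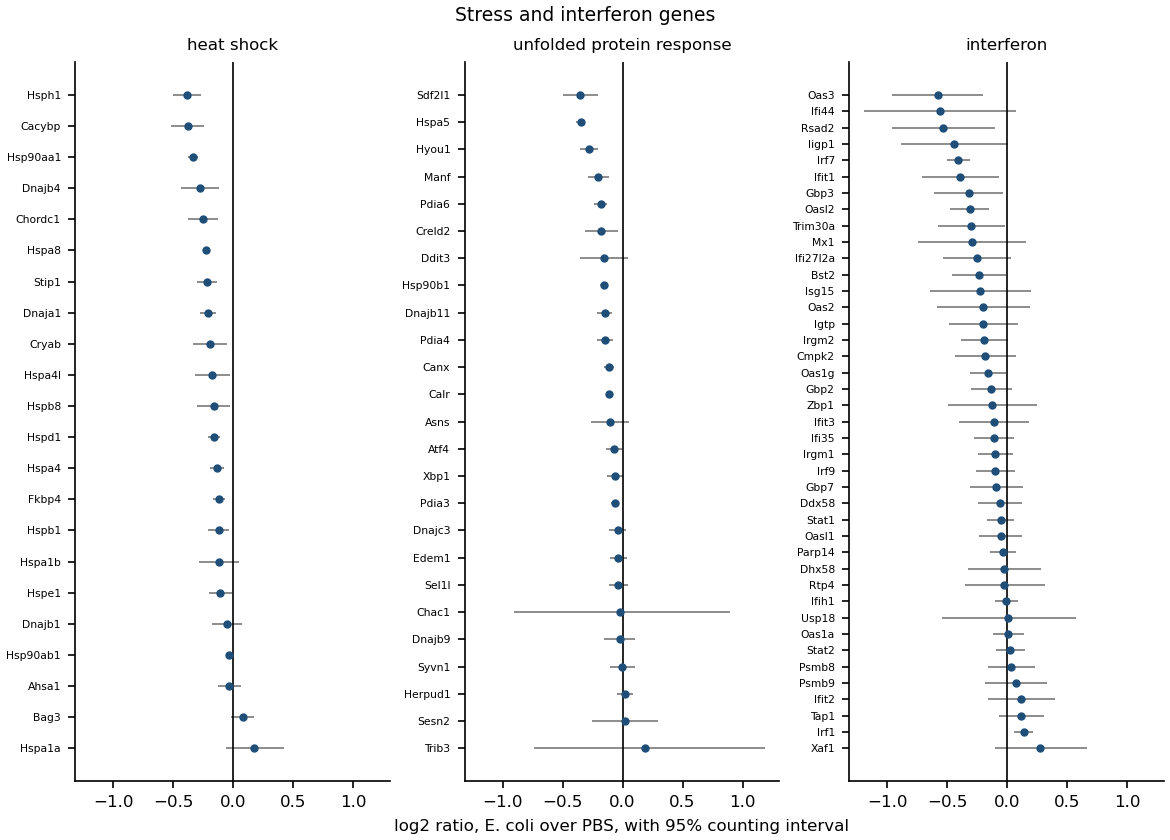
Log2 ratios of E. coli over PBS with 95% counting intervals for every measured gene of the heat shock, unfolded protein response and interferon lists. Most points lie left of 0, with the lowest at -0.39 (Hsph1), -0.35 (Sdf2l1) and -0.58 (Oas3), and none reaches a 2-fold difference.

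Antigen presentation genes leaned the other way by less. Of 11 MHC class II genes, 9 had positive ratios and were highest in the E. coli library, where 22.2% of all measured genes had their highest level there, and the median was 0.09. The invariant chain Cd74 was at 261 CPM in the E. coli library, against 245 in the PBS, 225 in the LGG and 191 in the untreated library (0.09 (0.03 to 0.15)), and it was the 1 member with an interval above 0. The chain gene H2-Eb1 was at 0.07 and the peptide loader H2-DMb1 at 0.30 (-0.01 to 0.62).

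Immediate early genes, which answer many stimuli within the hour, gave 1 gene past the size rule among 29 measured, against a background of 0.415% in both directions. It was Nr4a3, which was lower. This orphan nuclear receptor was at 0.792 CPM in the E. coli library, against 1.87 in the PBS, 1.16 in the LGG and 1.16 in the untreated library, a ratio of -1.22 (-2.09 to -0.41) from 23 counts against 30. Its relatives Nr4a2 (-0.74 (-1.18 to -0.30)) and Nr4a1 (-0.32 (-0.52 to -0.12)) had intervals below 0, as did Fosb (-0.59), Atf3 (-0.54), Egr1 (-0.34) and Fos (-0.25), whereas Junb (0.19), Klf4 (0.15), Ier2 (0.14) and Jund (0.13) had intervals above 0. The list median was -0.03, and the E. coli library was the lowest of the 4 for 10 of 29 genes. All 3 Nr4a genes were lowest in the E. coli library.

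No metallothionein or glucocorticoid-induced gene passed the size rule, and 2 of 3 measured metallothioneins had a positive ratio with an interval above 0. The metal-binding protein Mt2 was at 55.0 CPM in the E. coli library, against 34.8 in the PBS, 66.0 in the LGG and 74.9 in the untreated library, a ratio of 0.66 (0.52 to 0.80), so the PBS library was the low one. Mt1 was at 178 CPM, against 149.6, 202 and 154 CPM (0.25 (0.18 to 0.32)), and Mt3 was at 5.54 and 6.61 CPM in the E. coli and PBS libraries (-0.25 (-0.62 to 0.11)). In the glucocorticoid-induced list 10 of 18 genes had positive ratios and 8 negative ones, 8 intervals lay above 0 and 2 below, and the median was 0.12. The shares over all measured genes were 50.7% with a positive ratio, 10.05% with an interval above 0 and 8.93% with one below. Zbtb16, a transcription factor, was at 0.55 (0.32 to 0.79), the cortisol-inactivating enzyme Hsd11b2 at 0.22 and Cdkn1a at 0.17, while Sgk1 was at -0.38 (-0.44 to -0.33), with 0.20 over the untreated library, and Fkbp5 at -0.08. Olfr78, an odorant receptor for short-chain fatty acids, was at 6.13 CPM in the E. coli library, against 3.61 in the PBS, 3.66 in the LGG and 8.13 in the untreated library, a ratio of 0.76 (0.33 to 1.22).

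No gene of the oxidant defence and energy metabolism lists passed the size rule. The Nrf2 target list, the genes of the response to oxidants and electrophiles named in the title of the study, had a median of -0.03 over 36 genes with none past the size rule. Its most abundant members, the ferritin chains Fth1 (0.09) and Ftl1 (0.02) and thioredoxin (Txn1, 0.07), lay near 0, and Abcc2, an efflux pump, had a ratio of -0.49 (-0.87 to -0.11). The epithelial oxidase Nox1 was at 26.9 CPM in the E. coli and 26.7 CPM in the PBS library (0.01 (-0.16 to 0.19)). Median ratios were 0.04 for NADPH oxidases, 0.01 for oxidative phosphorylation, -0.03 for glycolysis, -0.01 for cholesterol synthesis, 0.04 for fatty acid oxidation, -0.03 for xenobiotic metabolism, -0.01 for the circadian clock and 0.06 for tight junctions, and none of these lists had a gene past the rule. Of 29 xenobiotic metabolism genes, 11 had an interval below 0, among them the cytochromes Cyp2c55 (-0.27) and Cyp2c65 (-0.30), and 3 had one above 0. Of 23 fatty acid oxidation genes, 6 had an interval above 0, among them the carnitine acyltransferase Cpt1a (0.24), and 1 had one below 0. The shares over all measured genes were 10.05% above 0 and 8.93% below. In the proliferation list (median -0.03) the replication helicase genes Mcm3 (-0.28), Mcm4 (-0.27), Mcm5 (-0.19), Mcm6 (-0.21) and Mcm7 (-0.14) had intervals below 0, whereas Mki67 (0.09) and Top2a (0.07) were slightly positive.

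**Figure D5:**
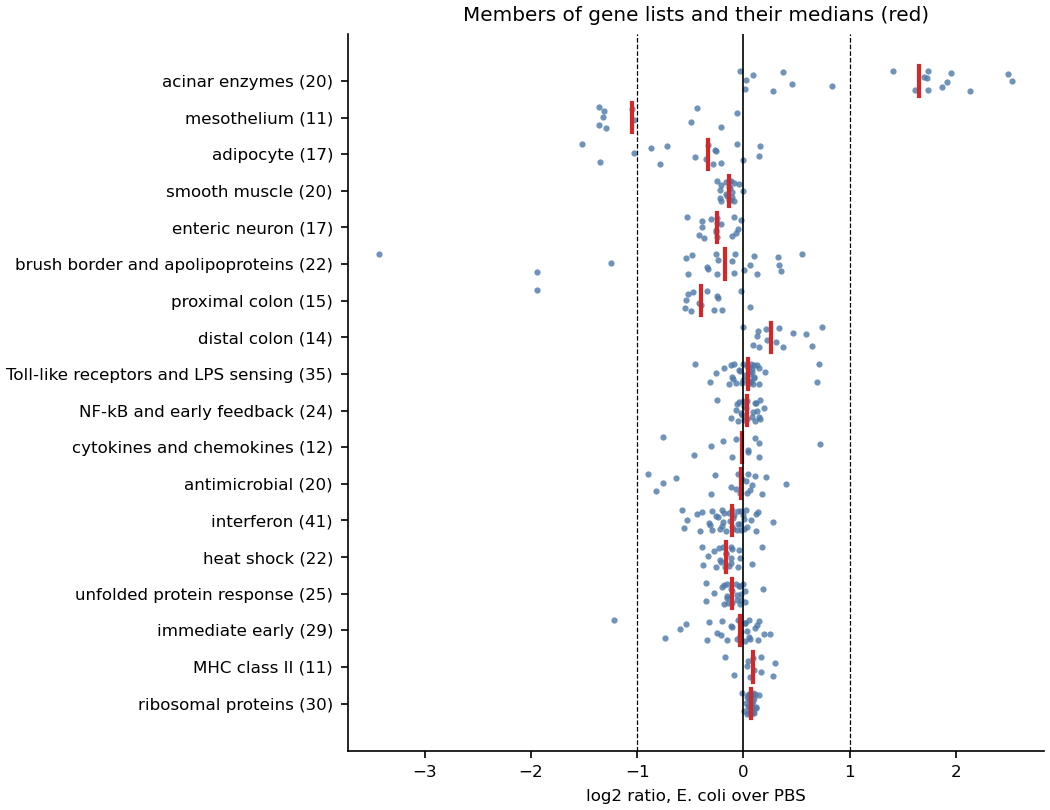
Log2 ratios of E. coli over PBS for the measured members of 18 gene lists, 1 point per gene, with the number of genes in parentheses, list medians as red bars and the 2-fold size rule as dashed lines. The acinar (median 1.65) and mesothelium (median -1.05) lists lie apart, and the sensing, NF-kB, cytokine and antimicrobial lists have medians between -0.02 and 0.04.

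RNA of the ribosome varied strongly between libraries. Rn45s, the precursor of ribosomal RNA, which is largely removed when polyadenylated RNA is selected, was at 5731 CPM in the E. coli library, against 12740.0 in the PBS, 11566 in the LGG and 2359.6 in the untreated library, a ratio of -1.15 (-1.16 to -1.14). Lars2, a mitochondrial leucyl-tRNA synthetase, followed the same order at 1085 CPM, against 2398, 1733 and 487 CPM, a ratio of -1.14 (-1.17 to -1.12), and against the untreated library its ratio was 1.16. Whether the counts given to Lars2 include reads of ribosomal RNA was not tested. Ribosomal protein genes differed little and mostly in 1 direction: 29 of 30 listed genes lay above 0 (median 0.07), and of all 74 measured ones 70 were positive, with no ratio above 0.18. A positive ratio was found for 50.7% of all measured genes.

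Outside the acinar, mesothelium and adipocyte lists 13 genes were higher and 25 lower past the size rule. On the higher side Nccrp1, a sugar-binding F-box family protein, was at 2.44 CPM in the E. coli library, against 0.935 in the PBS, 1.33 in the LGG and 0.981 in the untreated library (1.37 (0.57 to 2.30)). Stra6, the cell surface receptor for retinol-binding protein, was at 2.34 CPM, against 0.997, 1.504 and 1.26 CPM (1.22 (0.43 to 2.12)). Both genes were highest of the 4 in the E. coli library, as were 9 of the 13. The size rule itself fixes that E. coli lay above PBS for all 13. The others were 2210010C04Rik, the testis kinase Tssk6 (1.20), beta-synuclein (Sncb, 1.20), Efcab11 (1.16), the trophic factor Cdnf (1.10), the checkpoint gene Rad9b (1.07), Ppapdc3 (1.06), the lysophosphatidic acid receptor Lpar4 (1.05), 6720489N17Rik, E130309D14Rik and 3830403N18Rik, none with a mean of 5 CPM.

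On the lower side Myrf, a membrane-bound transcription factor, was at 0.895 CPM in the E. coli library, against 3.12 in the PBS, 1.64 in the LGG and 3.57 in the untreated library (-1.78 (-2.54 to -1.09)). Xlr3b, an X-linked gene whose close copies may share reads with it, was at 0.861 CPM, against 2.87, 1.78 and 3.29 CPM (-1.71 (-2.50 to -1.003)). The BMP inhibitor Chrdl2 was at 4.54 CPM, against 10.97, 6.39 and 2.49 CPM (-1.27 (-1.61 to -0.94)), and here the PBS library was the high one and untreated the low one. Also past the rule were the adhesion molecules Nrcam (-1.58) and Ncam2 (-1.02), the protocadherin Pcdh10 (-1.08), the kappa opioid receptor Oprk1 (-1.04), the nociceptin receptor Oprl1 (-1.10), Caly (-1.21), Nat8l, which makes N-acetylaspartate (-1.10), and the sodium pump regulator Fxyd7 (-1.06). The squamous keratin Krt14 was at 1.79 CPM in the E. coli library, against 3.68 in the PBS, 1.44 in the LGG and 1.61 in the untreated library (-1.03 (-1.60 to -0.48)), the cation channel Trpc4 at -1.19 and the RNA-binding protein Rbm24 at -1.01. Of these 25 genes, 20 had their lowest level in the E. coli library, and the size rule itself fixes that E. coli lay below PBS. Spin4, Gm12250, A530016L24Rik, the vault RNA Vaultrc5, Rn45s, Lars2, Alox15, Nr4a3, Akp3, Apoa4 and S100g complete the group.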

How the data were processed

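RNA was taken from colon in TRIzol, cleaned on columns with DNase, and made into libraries with the TruSeq RNA v2 kit, per the labels' protocols. The authors deposited expected counts per gene in steps of 0.5, which were rounded to whole numbers here. TopHat2, HOMER and the build mm9 are named in the submitters' processing notes, without versions or the use of strand. Reads of near-identical or overlapping genes cannot be assigned with certainty.

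Libraries were scaled to totals times TMM factors (edgeR 4.0.16, R 4.3.3), which were 0.989 for E. coli, 0.985 for PBS, 0.979 for LGG and 1.05 for untreated. Log2 ratios used a prior count of 0.5, scaled with each library (Python 3.11.15, numpy 2.4.6, pandas 2.3.3), and 95% counting intervals came from the exact conditional binomial distribution of the 2 counts (Clopper-Pearson, scipy 1.17.1). Figures used matplotlib 3.10.9. No test between conditions was made.

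The 54 gene lists and the comparison itself were chosen with earlier results of these data known. Each list is described by counts and its median. Named genes were the 12 highest and 12 lowest past the size rule by the interval bound nearest 0, without non-coding and predicted genes, histones and antigen receptor segments, then the 10 highest and 10 lowest ratios at a mean of at least 100 CPM, and in each list up to 6 members past the rule or, failing that, the 3 most abundant. Any sensor, cytokine or antimicrobial gene could also be named. Every other gene named was chosen after its values were seen. Alternatives were other scalings (library totals, upper quartile, DESeq2 1.42.0 size factors), no filter or a mean of 5 CPM, a 1.5-fold threshold, a prior count of 5, and the untreated library as control. Chosen after seeing the data were a 99% interval, unrounded counts and leaving out 3 lists.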

Additional observations from a re-analysis of the deposited data

How the results depend on the processing

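Each group has 1 library, so neither leaving out a replicate nor a spread between animals can be given. No paired analysis was possible because the groups hold 1 sample each. The shallower PBS library limits every ratio of scarce genes.

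Against 25 higher and 35 lower genes, no expression filter gave 45 and 90, a mean of at least 5 CPM 3 and 7, a prior of 5 counts 16 and 25, and a 1.5-fold threshold 68 and 144. With the untreated library as control there were 119 and 221, and without the acinar, mesothelium and adipocyte lists 13 and 25. A 99% interval gave 20 and 32 and unrounded counts 22 and 35. Scaling by totals, upper quartile or DESeq2 size factors kept both counts within 1.5 times and moved the median of all genes to at most 0.00799.

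With a mean of at least 5 CPM the acinar median was 0.32 and the mesothelium median -0.49. With the untreated library as control the medians were 3.49 for acinar enzymes, -0.78 for adipocytes, -0.31 for smooth muscle, -0.69 for enteric neurons, -0.82 for the brush border, 0.48 for cytokines, 0.22 for antimicrobial genes, 0.12 for interferon, -0.0523 for heat shock, 0.10 for the unfolded protein response, -1.29 for proximal and 0.84 for distal colon, and 0.11 for ribosomal proteins. Among the genes named by rank, Lars2 (1.16), Chrdl2 (0.86), Flnc (0.24), Sgk1 (0.20) and Hspa5 (0.03) had the other sign there. The cause was not tested.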
